A study of Mus musculus with 7 samples.

Results

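The Ifi200 family, also called HIN-200 or PYHIN, is a group of mouse proteins that bind DNA through a HIN domain, and most of its members also carry a pyrin domain through which they recruit partner proteins. Aim2 is the cytosolic receptor that assembles an inflammasome with the adaptor Asc (gene Pycard) and caspase-1 when it meets double-stranded DNA. Ifi204 acts with the adaptor STING in the interferon response to DNA, and Ifi202b, which has no pyrin domain, binds DNA and restrains Aim2. The family is named for its induction by interferon and is known to differ in gene content and expression between mouse strains.

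The 10 members described here were Ifi202b, Ifi203, Ifi204, Ifi205, Ifi207, Ifi209, Ifi211, Ifi213, Mndal and Aim2. They were chosen by gene symbol from the 55335 identifiers of the deposited tables, with earlier comparisons of allograft and naive libraries known, so their differences between these groups are given as a description and support nothing further. All 10 symbols were found, each on 1 row.

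The cells were type 2 innate lymphoid cells (ILC2s), which lack antigen receptors and respond to tissue alarm signals, sorted from mouse hearts by a CD45+ Lineage- ST2+ gate. The naive group held 3 libraries of naive hearts, whose mouse strain the labels do not state and which carry the same time label of 7 days. The allograft group held 4 libraries of Balb/C hearts taken 7 days after transplantation into C57BL/6 (B6) recipients, a model of acute rejection. The labels name no transgene, targeted allele or drug, and do not say whether the sorted cells of a graft came from its donor or its recipient. Cells of 4 to 7 hearts were pooled for a library and their RNA was amplified as full-length cDNA, so replicates were pools and not single animals.

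The cluster lies on chromosome 1 of mm10 (GRCm38), at chr1:173350879-174031810, and holds 14 annotated family genes over 680.9 kb. Of the 10 members, 8 lie on the minus strand and 2, Aim2 and Ifi209, on the plus strand. Mndal (chr1:173849126-173942491) is annotated across the whole of Ifi211 (chr1:173896345-173913046) and most of Ifi203 (chr1:173920407-173942672), and shares 37 exon bases with Ifi203 on the same strand. Ifi202b lies at chr1:173962568-173982744 and Ifi205 at chr1:174011998-174031810. Ifi213 (chr1:173566283-173599274), Ifi209 (chr1:173630917-173647928), Ifi207 (chr1:173723427-173741747) and Ifi204 (chr1:173747293-173766943) lie between Mndal and Aim2 (chr1:173350879-173466040).

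Because the family is known as interferon-induced, the promoters were searched for the motif GAAANNGAAA, the core of the interferon-stimulated response element. Both strands of the 250 bases before each RefSeq start (GRCm38.p6) were read, and a promoter table entry existed for all members but Ifi204. The motif occurred in 978 of 32851 mouse promoter entries (2.98%), where a gene can have several. Of the 9 members with an entry, 6 held the motif in at least 1 entry: Ifi203, Ifi205, Ifi207, Ifi211, Ifi213 and Mndal. It was not found in these windows of Aim2, Ifi202b and Ifi209. Nor was it found before the upstream of the 2 RefSeq starts of Ifi203. The 30-base stretches around these matches are shown because they group the members by sequence. Capitals mark the motif, or in Ifi209 1 of the 4 stretches that differ from it at 1 position, chosen for its spacer shared with Ifi203, and each is read 5′ to 3′ on the strand of its gene, the minus strand for all but Ifi209.

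Ifi203: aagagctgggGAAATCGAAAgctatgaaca

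Mndal: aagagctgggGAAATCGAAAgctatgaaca

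Ifi205: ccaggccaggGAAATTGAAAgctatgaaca

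Ifi211: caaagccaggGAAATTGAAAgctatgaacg

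Ifi207: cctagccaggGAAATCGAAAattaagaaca

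Ifi213: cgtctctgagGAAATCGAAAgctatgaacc

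Ifi209: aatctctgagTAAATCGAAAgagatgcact

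The capitals lie at chr1:173942518-173942527 in Ifi203, chr1:173880214-173880223 in Mndal, chr1:174031880-174031889 in Ifi205 and chr1:173913074-173913083 in Ifi211. Those of Ifi207 lie at chr1:173741841-173741850, of Ifi213 at chr1:173599336-173599345 and of Ifi209 at chr1:173630780-173630789. Ifi203 and Mndal carried the same 30 bases. Ifi205 and Ifi211 carried the same core, which differed from that of Ifi203 in the spacer. The Ifi209 stretch shown differed from the motif by G1T, counted from 1 at the motif's 5′ end. The other stretches of Ifi209 differed by A8G, A3G and G7C, and 1 stretch of Aim2 by A3C. The second RefSeq start of Mndal had a further exact match on the opposite strand. In Ifi211 the match began 37 bases before the RefSeq start, and in Ifi205 it began 134 bases before it.

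The likeness ran beyond the motif. Over their aligned promoter bases, Ifi205 and Ifi211 were identical at 141 of 151 positions (93.4%). The downstream of the 2 Ifi203 starts and the upstream of the 2 Mndal starts were identical at 233 of 239 (97.5%). The whole 250 bases are shown for the latter pair, which supplied most of the family's counts in every library, with the motif in capitals. They are the minus strand of chr1:173942493-173942742 for Ifi203 and of chr1:173880188-173880437 for Mndal.

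Ifi203: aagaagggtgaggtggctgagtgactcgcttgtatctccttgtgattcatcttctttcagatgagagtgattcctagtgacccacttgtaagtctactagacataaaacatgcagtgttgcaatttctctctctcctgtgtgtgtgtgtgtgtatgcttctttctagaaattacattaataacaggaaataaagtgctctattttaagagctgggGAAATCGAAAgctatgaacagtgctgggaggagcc

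Mndal: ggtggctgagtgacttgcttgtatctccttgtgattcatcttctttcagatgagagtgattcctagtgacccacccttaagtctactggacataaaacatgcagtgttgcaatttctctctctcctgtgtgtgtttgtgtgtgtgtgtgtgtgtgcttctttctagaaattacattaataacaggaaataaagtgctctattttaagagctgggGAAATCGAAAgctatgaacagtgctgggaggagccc

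A match describes letters and is not evidence that a factor bound there in these cells. Transcripts of some members also share sequence, which limits how surely a read belongs to 1 gene. Of the 50-base words of Ifi211 transcripts, 72.8% also occurred in another gene, 44.7% in Ifi205, 30.1% in Ifi204 and 17.1% in Mndal. The share was 33.8% for Ifi209, nearly all of it in Ifi214, and 20.02% for Ifi204, 19.6% for Mndal, 18.6% for Ifi205, 15.6% for Ifi213, 12.4% for Ifi203 and 7.29% for Ifi207. It was 0.74% for Aim2, and no word of Ifi202b was shared. The read length and the treatment of reads with several matches are not given in the sources used here, so the split between Ifi211 and Ifi205 is uncertain.

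Total counts were 29107326 to 53044907 per library, and 3 counts, taken as the most that a listed 0 allows, corresponded to 0.0566 to 0.103 CPM. CPM is a count scaled to the total of its own library. Such floors cover counting error only, and not transcripts lost before sequencing. Naive replicate 2 stood apart: 26.5% of its counts were mitochondrial, against 2.04% to 3.11% in the other 6 libraries. Its 12 ILC2 markers summed to 1153 CPM, against 12301 and 14832 in the other naive libraries and 12020 to 12791 in the allografts. Its 8 kidney markers summed to 9908 CPM, against 67.3 to 244 elsewhere. Gata3, which defines ILC2s, was at 34.8 CPM there and at 654 to 970 CPM in the other 6 libraries. Il1rl1, which encodes ST2, was at 6.79 CPM there and at 343 to 756 CPM elsewhere. Values are therefore also given without that library. In bulk RNA, fewer cells of a type and less RNA per cell cannot be told apart.

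**Figure D1:**
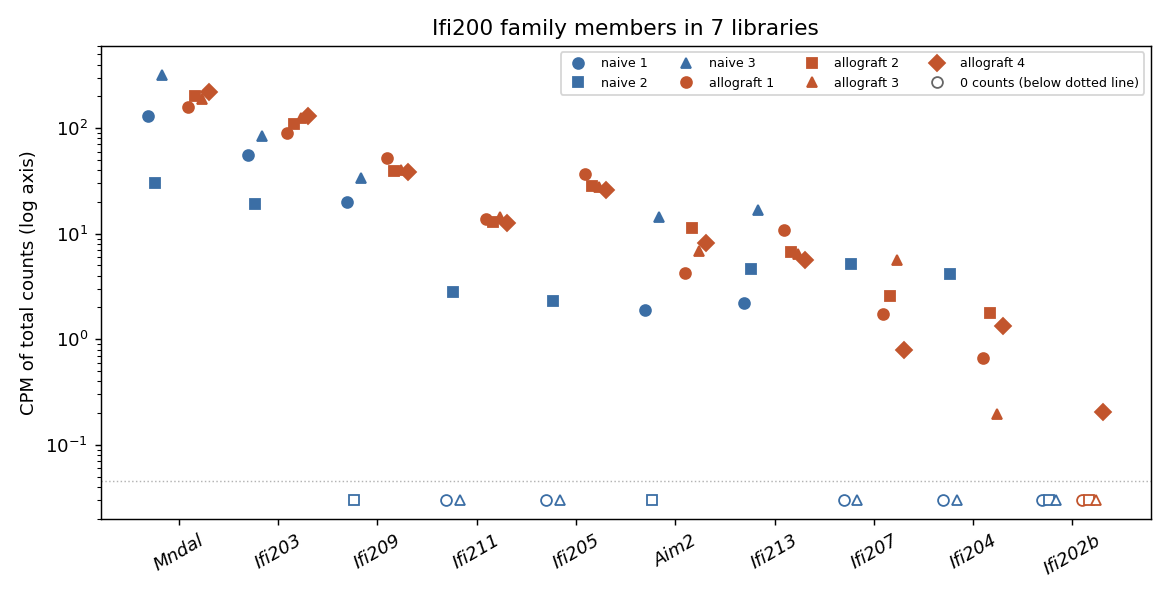
CPM of each of the 10 members (horizontal axis) in each of the 7 libraries on a log axis, with blue naive and orange allograft symbols and the replicate given by shape. Open symbols below the dotted line are libraries with 0 counts. Ifi205 and Ifi211 are at 0 in naive replicates 1 and 3 and at 12.6 to 36.9 CPM in all 4 allografts, whereas Mndal spans 29.9 to 320 CPM in the naive group around its allograft values.

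The allograft libraries contained transcripts of nearly the whole family. More than 3 counts were found for 5, 7 and 5 members in the naive libraries (replicates 1 to 3) and for 9, 9, 9 and 10 in the allografts (replicates 1 to 4). Over all identifiers, at least 1 count was found for 15820, 20254 and 13864 in the naive libraries. In the allografts it was found for 21033, 20368, 19235 and 21354. Naive replicates 1 and 3 thus had fewer genes detected in general, not only in this family. Per length, Mndal led in the allografts with 46.4 ± 6.12 FPKM (fragments scaled to gene length and depth, SD, n = 4). Ifi203 followed with 14.6 ± 2.41 FPKM and Ifi209 with 10.3 ± 1.44 FPKM. Mndal was above Ifi203 in all 4 allografts with no overlap of their ranges, but the ranges of Ifi203 and Ifi209 overlapped.

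Ifi211 with 6.52 ± 0.409 FPKM and Ifi205 with 6.16 ± 0.987 FPKM formed the next step in the allografts, and their ranges overlapped. Ifi209 lay above both, and both lay above Aim2, which was at 1.87 ± 0.729 FPKM. Below it, Ifi213 was at 0.932 ± 0.295, Ifi207 at 0.680 ± 0.538 and Ifi204 at 0.235 ± 0.171 FPKM, and each neighbouring pair in this order overlapped. Ifi202b was last, with 0 in 3 allografts and 0.104 FPKM in the fourth.

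**Figure D2:**
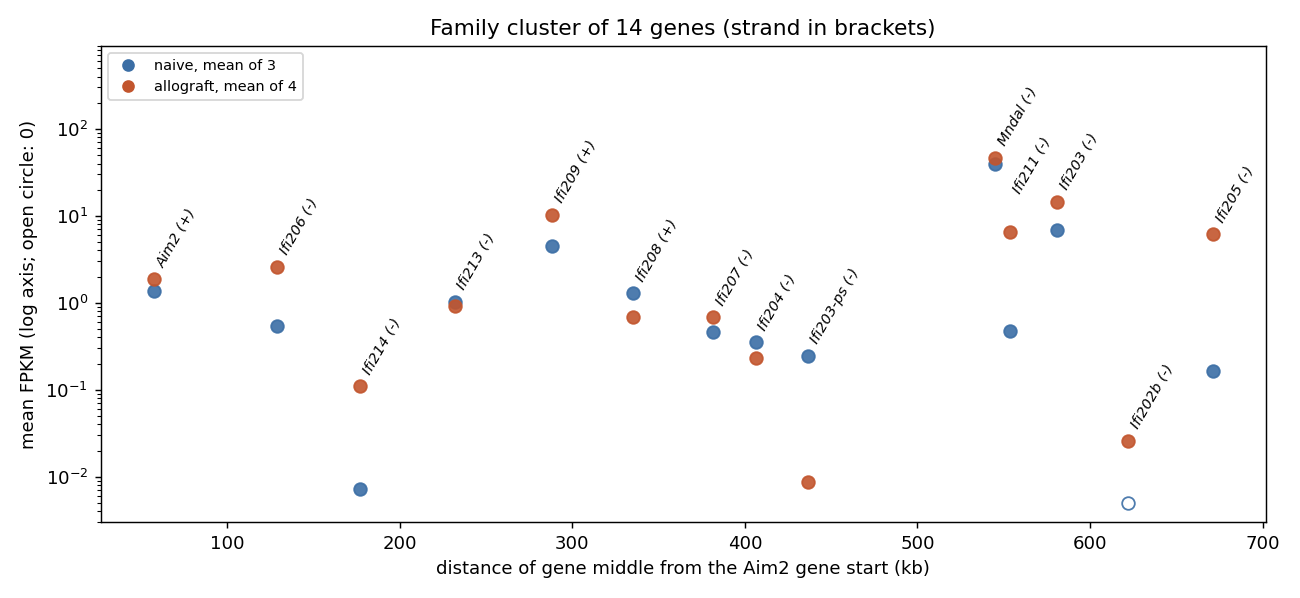
Mean FPKM on a log axis for the 14 family genes of the cluster, placed by the distance of the gene's middle from the annotated Aim2 gene start in kb, with the strand in brackets. Blue circles are the mean of 3 naive and orange circles the mean of 4 allograft libraries, and an open circle is a mean of 0. Mndal is highest in both groups, and Ifi205 and Ifi211, at the right, show wide gaps between the groups.

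Mndal, a relative of the human myeloid nuclear differentiation antigen, had the highest FPKM of the members in every library, with 31.8, 7.64 and 78.8 FPKM in naive replicates 1 to 3, but its naive libraries differed widely. It was at 130 CPM in naive replicate 1, 29.9 in replicate 2 and 320 in replicate 3. The allografts held 159, 202, 191 and 218 CPM, which lie inside the naive range. The log2 ratio of allograft to naive was 0.18 (SE 0.606) and changed sign to -0.29 (SE 0.376) without naive replicate 2. The direction for Mndal rests on that library.

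Ifi203 is a nuclear member of the family. Its CPM was 55.2, 19.1 and 83.8 in the naive libraries and 89.7, 108, 125 and 131 in the allografts. Every allograft was above every naive library, but allograft replicate 1 exceeded naive replicate 3 by little. The log2 ratio was 0.99 (SE 0.422), and without naive replicate 2 it was 0.65 (SE 0.294). Its adjusted p by edgeR's quasi-likelihood test, 0.478, did not pass 0.05, and it lay between 0.166 and 1 over 15 alternatives.

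Summed, Ifi203 and Mndal gave 186, 49.0 and 403 CPM in the naive and 248.8, 310, 315 and 348 CPM in the allograft libraries. Reads counted for either gene enter the sum whatever their division, but reads matching several genes may have been left out or counted elsewhere. The sum overlapped between the groups. Its log2 ratio was 0.43 (SE 0.554) over all libraries and -0.01 (SE 0.345) without naive replicate 2. The ratio of Mndal to Ifi203 counts was 2.36, 1.57 and 3.81 in the naive and 1.77, 1.87, 1.53 and 1.67 in the allograft libraries. Naive replicates 1 and 3 lay above all allografts and naive replicate 2 among them.

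Ifi209 was at 19.9 CPM in naive replicate 1, at 0 in replicate 2 and at 34.0 in replicate 3. It was at 51.6, 39.2, 40.3 and 38.8 CPM in the allografts, all above the naive libraries. The log2 ratio was 1.21 (SE 1.50) with all 7 libraries and 0.60 (SE 0.363) without naive replicate 2, and its adjusted p by edgeR was 0.873 and 0.388.

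Ifi205, whose protein is known to regulate expression of the inflammasome adaptor Asc, had the largest log2 ratio of the 9 members tested. It had 0 counts in naive replicates 1 and 3, where the floor was 0.0566 and 0.0688 CPM, and 2.29 CPM in naive replicate 2. The allografts held 36.9, 28.5, 27.4 and 26.2 CPM, from 762 to 1626 counts. All 4 allografts were above all 3 naive libraries.

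Ifi211 followed the same order at a lower level. It had 0 counts in naive replicates 1 and 3 and 2.79 CPM in replicate 2, and stood at 13.9, 12.96, 14.4 and 12.6 CPM in the allografts. It was the steadiest member among the allografts, with an SD of log2 CPM of 0.0903, against up to 1.29 for Ifi204. Because Ifi211 shares most of its sequence words with its relatives, the pair was also summed. The sum was 0, 5.08 and 0 CPM in the naive and 50.8, 41.5, 41.8 and 38.8 CPM in the allograft libraries.

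With all 7 libraries, the log2 ratio was 4.71 (SE 2.16) for Ifi205 and 3.28 (SE 2.19) for Ifi211, with adjusted p of 0.528 and 0.727 by edgeR. Without naive replicate 2, both passed the threshold, with adjusted p of 0.0161 and 0.0234 by edgeR. Among 15 alternatives, 3 gave an adjusted p under 0.05 for Ifi205 (range 0.0152 to 1) and 2 for Ifi211 (range 0.0234 to 1). Against a floor of 3 counts in each of naive replicates 1 and 3, Ifi205 was at least 475-fold higher in the allografts and Ifi211 at least 215-fold higher. The bounds cover counting error only. Naive replicates 1 and 3 had counts for 15820 and 13864 genes, against 19235 to 21354 in the other libraries. Against the mean of all 3 naive libraries, 0.762 and 0.931 CPM, the allograft means of 29.8 and 13.5 CPM stand far closer, so these bounds rest on leaving naive replicate 2 out. The ratio of Ifi205 to Ifi211 counts was 0.819 in naive replicate 2 and 2.67, 2.20, 1.90 and 2.08 in the allografts.

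**Figure D3:**
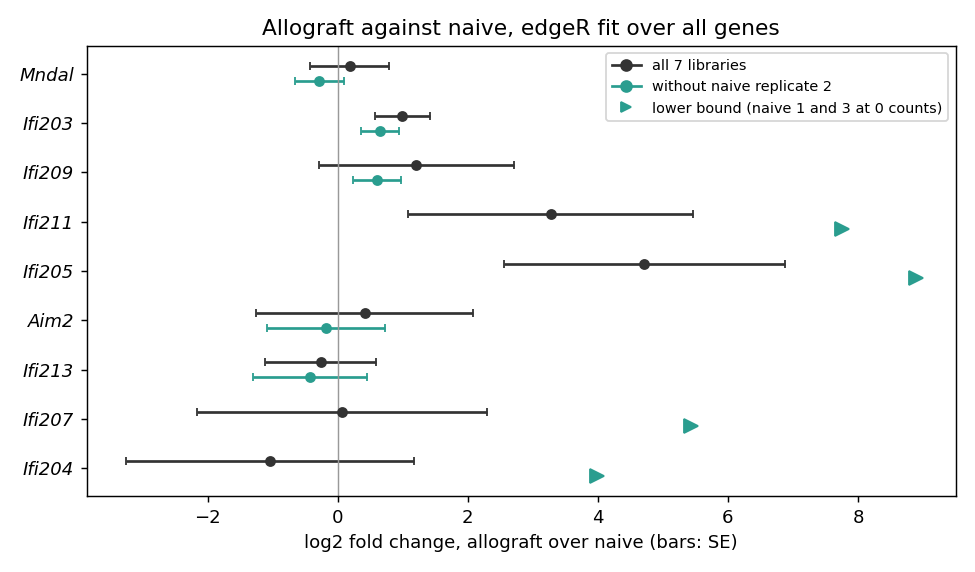
Log2 fold change of allograft over naive for the 9 members tested, from edgeR with all 7 libraries (black) and without naive replicate 2 (green), with bars of 1 SE. Triangles are lower bounds, for counting error only, where naive replicates 1 and 3 had 0 counts. Ifi205 and Ifi211 lie at 4.71 and 3.28 with bars of more than 2 log2 units, and at bounds of 8.89 and 7.75 without that library, while Mndal crosses 0.

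Ifi207 and Ifi204 shared the 0 counts in naive replicates 1 and 3 but not the position of naive replicate 2. Ifi207 was at 5.17 CPM in naive replicate 2 and at 1.75, 2.59, 5.68 and 0.790 CPM in the allografts. Ifi204, the sensor that acts with STING, was at 4.11 CPM in naive replicate 2, above all allografts, which held 0.659, 1.79, 0.196 and 1.34 CPM. Without that library, Ifi207 was at least 43.1-fold and Ifi204 at least 15.9-fold higher in the allografts, with adjusted p by edgeR of 0.0599 and 0.0955. With all 7 libraries the log2 ratios were 0.07 (SE 2.23) and -1.04 (SE 2.21). The sign for Ifi204 changed with naive replicate 2, and the ratio for Ifi207 lay near 0 with that library and changed sign in 5 of 15 alternatives.

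Aim2, the inflammasome receptor, overlapped between the groups, with widely spread naive libraries. It was at 1.90 CPM in naive replicate 1, 0 in replicate 2 and 14.5 in replicate 3. The allografts held 4.20, 11.3, 6.90 and 8.07 CPM, all between naive replicates 1 and 3. Its log2 ratio was 0.42 (SE 1.67), and -0.18 (SE 0.905) without naive replicate 2.

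Ifi213 was at 2.19, 4.64 and 16.9 CPM in the naive and at 10.9, 6.73, 6.46 and 5.60 CPM in the allograft libraries. Its groups overlapped, with a log2 ratio of -0.26 (SE 0.855). Ifi202b, the restrainer of Aim2, had 0 counts in 6 libraries and 6 counts (0.206 CPM) in allograft replicate 4. It is the member best known for strain differences, with very low expression in C57BL/6 mice. It was not tested because it did not pass the filter on low counts, and no fold is given.

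By edgeR with all 7 libraries, 0 of the 9 members tested passed an adjusted p of 0.05, against 6 of 17015 genes (0.0353%). Of the members 1, Ifi203, had an unadjusted p under 0.05, as had 1748 of all genes (10.3%). DESeq2 called 0 of the 9 members to which it gave an adjusted p, against 1227 of 18850 genes (6.51%), and 1 member, Ifi205, had an unadjusted p under 0.05. Without naive replicate 2, edgeR called 2 of 9, Ifi205 and Ifi211, against 542 of 18037 genes called as higher in allografts (3.0%). In limma on log2(FPKM + 0.1), 1 of 8 members tested, Ifi205, was called as higher, against 1.52% of genes. With log2(FPKM + 1), 2 of 8, Ifi205 and Ifi211, were called, against 0.84% of genes. Because the members were chosen with such results known, nothing is read from these shares.

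In 4 members, Ifi203, Ifi205, Ifi209 and Ifi211, every allograft was above every naive library in CPM, and in 0 members the reverse held. Among all genes tested, 12.5% had every allograft higher in CPM and 10.5% on the scale normalized by TMM, on which the same number of members, 4, qualified. The median log2 ratio of the 9 members was 0.42, against -0.01 over all genes tested. Without naive replicate 2 these medians were 0.65 and 0.23. The ratio was above 0 for 7 of 9 members, against 49.4% of all genes, and for 6 of 9 without naive replicate 2, against 58.7%.

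Of the 10 members, 9 fell into 3 patterns of detection, and Ifi202b, with counts in 1 library, into none of them. Ifi204, Ifi205, Ifi207 and Ifi211 had 0 counts in naive replicates 1 and 3 and more than 3 in the other 5 libraries, as had 860 of all genes tested (5.05%). Ifi209 and Aim2 had 0 counts in naive replicate 2 and more than 3 elsewhere, as had 300 genes (1.76%). Ifi203, Ifi213 and Mndal had more than 3 counts in all 7 libraries, as had 10093 genes (59.3%). Within the first group, Ifi211 shares 50-base words with both Ifi205 and Ifi204. The second group comprises both members on the plus strand. Among the other family genes of the cluster, strand did not go with this pattern. Ifi208, on the plus strand, had more than 3 counts in all 7 libraries, and Ifi214, on the minus strand, had 0 in naive replicate 2.

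The family as a whole was more evenly divided among its members in the grafts than in naive replicates 1 and 3. Mndal supplied 62.2% of the family's counts in naive replicate 1 (95% Wilson interval 61.3% to 63.1%), 44.0% in replicate 2 (42.3% to 45.8%) and 68.2% in replicate 3 (67.5% to 68.8%). In the allografts it supplied 43.2%, 48.9%, 45.8% and 49.3%. Naive replicate 2 lay among the allografts. Ifi203 and Mndal together held 88.6%, 72.1% and 86.0% in the naive and 67.5%, 75.1%, 75.7% and 78.8% in the allograft libraries. Ifi205 held 0%, 3.36% and 0% of naive and 10.02%, 6.90%, 6.57% and 5.92% of allograft family counts.

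The family's summed level was 210, 68.0 and 469 CPM in the naive and 369, 413, 417 and 442 CPM in the allograft libraries. The allografts lay within the naive range, and the log2 ratio of the sum was 0.62 (SE 0.519), or 0.21 (SE 0.342) without naive replicate 2. The total therefore overlapped between the groups while the share of Ifi205 did not.

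**Figure D4:**
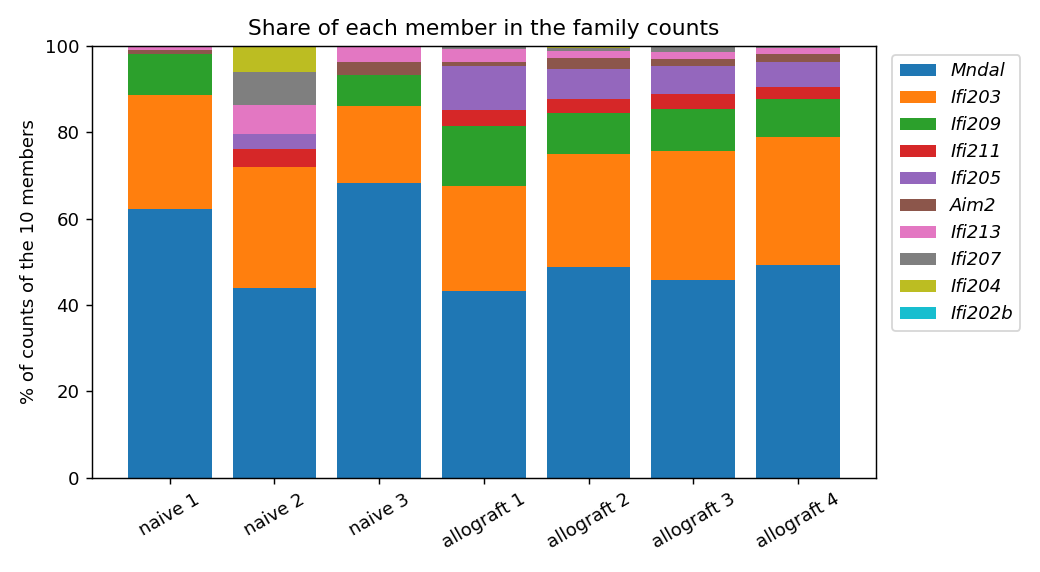
Share in percent of each member in the counts of the 10 members, as stacked bars for the 3 naive and 4 allograft libraries. Mndal (lowest segment) takes 62.2% and 68.2% in naive replicates 1 and 3 and 43.2% to 49.3% in the allografts, where segments for Ifi205 and Ifi211 appear, as they do in naive replicate 2 but not in naive replicates 1 and 3.

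Some markers of other cells also had 0 counts in naive replicates 1 and 3 and more than 3 counts in all allografts. This pattern leaves naive replicate 2 aside and is shared by Ifi204, Ifi205, Ifi207 and Ifi211. With more than 3 counts in naive replicate 2 as well, 5.05% of all genes tested had it. The share of all genes with the pattern when naive replicate 2 is left aside was not counted. Nothing is therefore read from the counts of markers that showed it. The 9 dendritic cell markers summed to 12.7, 30.7 and 31.8 CPM in the naive and 91.4 to 117 CPM in the allograft libraries. Of these markers, 7 of 9 had 0 counts in naive replicates 1 and 3 and more than 3 counts in all allografts. Itgax, which encodes CD11c, had 0 counts in all naive libraries and 6.73 to 10.6 CPM in the allografts. Flt3 was at 1.38 CPM in naive replicate 2, at 0 in the other naive libraries and at 16.3 to 27.2 CPM in the allografts. Not all markers of this list separated the groups. Cd209a, among the 7, was at 18.2 CPM in naive replicate 2 and at no more than 10.9 CPM in the allografts. Xcr1 was at 12.7, 0 and 30.9 CPM in the naive libraries, which spanned the 13.5 to 25.4 CPM of the allografts.

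Of the 10 B cell markers, 5 showed the same pattern, and their sum was 268, 44.6 and 249 CPM in the naive and 323 to 500 CPM in the allograft libraries. Ms4a1, which encodes CD20, had 0 counts in all naive libraries and 13.6 to 34.1 CPM in the allografts. Other B cell markers did not separate the groups in this way. Ebf1, among the 5, was at 18.002 CPM in naive replicate 2, above all allografts. Cd79b was at 117, 1.41 and 0 CPM in the naive libraries, which spanned the 34.6 to 47.7 CPM of the allografts. Of the 12 myeloid markers, 3 showed the pattern. The sum of the 12 was 2.49, 339 and 476 CPM in the naive libraries, which spanned the 198 to 313 CPM of the allografts. C1qa, among the 3, was at 13.1 CPM in naive replicate 2 and at 1.23 to 4.06 CPM in the allografts. The pattern was shown by 2 of 6 NK cell markers, Klrb1c and Klra8, and by 2 of 8 fibroblast markers. It was shown by 0 of 10 T cell, 12 ILC2, 6 mast cell, 6 erythroid, 10 cardiomyocyte, 8 endothelial and 8 kidney markers. T cell markers summed to 348, 30.4 and 1085 CPM in the naive and 1065 to 1263 CPM in the allograft libraries, and NK cell markers to 174, 17.9 and 88.6 and to 232 to 324 CPM. The part of such cells in the values of Ifi205 and Ifi211 was not tested.

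**Figure D5:**
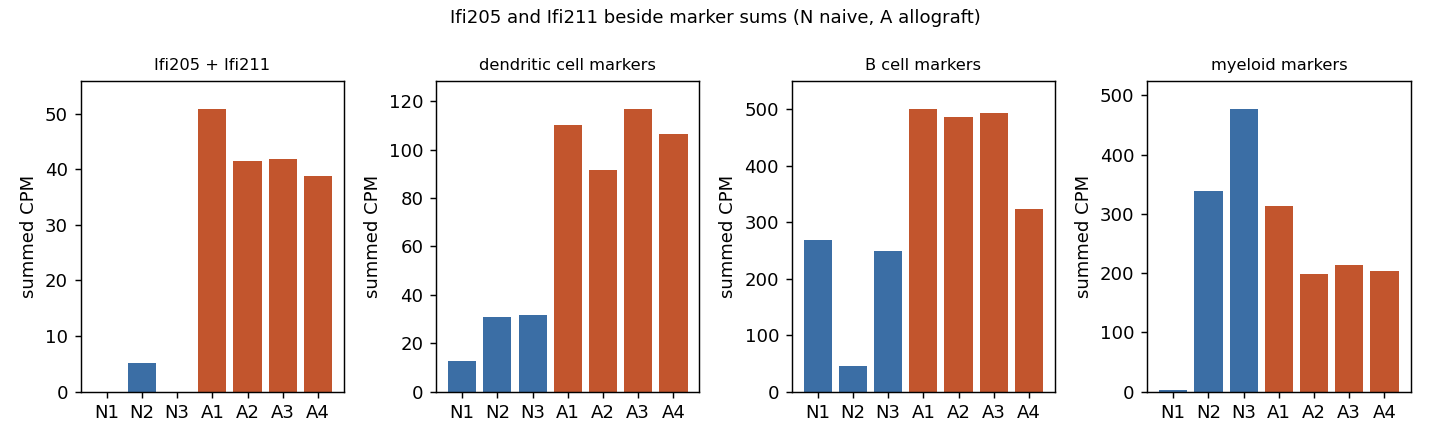
Summed CPM of Ifi205 and Ifi211 and of the dendritic cell, B cell and myeloid markers in naive (N1 to N3, blue) and allograft (A1 to A4, orange) libraries, each panel with its own axis from 0. The pair and the dendritic cell markers are lowest in the 3 naive libraries, whereas the myeloid sum is highest in naive replicate 3, at 476 CPM.

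The other family genes of the cluster were Ifi206, Ifi208, Ifi214 and the pseudogene Ifi203-ps. Ifi206 was at 3.81, 1.82 and 0 CPM in the naive and at 10.6, 4.81, 9.69 and 11.5 CPM in the allograft libraries, without overlap, with a log2 ratio of 2.08 (SE 1.61). Ifi214 was at most at 0.184 CPM in the naive libraries and at 1.50, 0.648, 0.343 and 1.79 CPM in the allografts, with a log2 ratio of 3.74 (SE 1.52, adjusted p 0.447 by edgeR). Of the 50-base words of Ifi209, 33.4% also occur in Ifi214. Ifi208 was at 0.490, 3.06 and 19.4 CPM in the naive and at 8.72, 0.802, 0.930 and 6.36 CPM in the allograft libraries, which overlapped. Ifi203-ps was at 2.04 CPM in naive replicate 2, at 0.114 CPM in allograft replicate 1 and at 0 elsewhere. Of the 3 tested, 0 passed the adjusted threshold by edgeR. An unadjusted p under 0.05 was found for 1, Ifi214, as higher in allografts, against 10.3% of all genes tested in either direction.

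Genes of the pathways in which the family acts were read from the same fit. In that edgeR fit, 10.3% of all genes tested had an unadjusted p under 0.05, in either direction. Of 14 DNA sensing genes tested of 16 listed, edgeR called 0, and 3 had an unadjusted p under 0.05 as higher in the allografts. The median log2 ratio was 0.33, and 0.13 without naive replicate 2, against -0.01 and 0.23 over all genes. Rnaseh2a, a subunit of the RNase H2 complex, was at 18.8 ± 5.30 CPM (SD, n = 3) in the naive and 47.3 ± 3.93 CPM (SD, n = 4) in the allograft libraries, a log2 ratio of 1.16 (SE 0.317). Ddx41, a helicase reported as a DNA sensor, was at 54.5 ± 18.5 and 114 ± 25.03 CPM, a log2 ratio of 0.87 (SE 0.342). Mb21d1, which encodes the DNA sensor cGAS, was at 1.23, 0 and 0 CPM in the naive and at 9.36, 13.02, 17.3 and 12.3 CPM in the allograft libraries, without overlap. Without naive replicate 1 edgeR called Mb21d1, and limma called it on either FPKM scale. The adaptor STING, here Tmem173, was at 97.7, 5.96 and 33.1 CPM in the naive and 35.2 to 50.2 CPM in the allograft libraries, which overlapped.

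Of 13 inflammasome genes, edgeR called 0, and 1 had an unadjusted p under 0.05, as higher in the allografts. The median log2 ratio was 0.71, and 0.46 without naive replicate 2. Nlrp3, an inflammasome sensor, had 0 counts in all naive libraries and 1.79, 2.25, 3.67 and 2.16 CPM in the allografts, at least 38.7-fold higher than the floor (adjusted p 0.144 by edgeR). Pycard, which encodes the adaptor Asc of Aim2, was at 198, 39.2 and 28.7 CPM in the naive and at 196, 161, 191 and 153 CPM in the allograft libraries, which overlapped. Casp4, which encodes the caspase that senses lipopolysaccharide, was at 48.9, 4.46 and 69.3 CPM in the naive and 59.0 to 105 CPM in the allograft libraries. In this list edgeR called Nlrp3 and Il18 without naive replicate 2.

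Of 14 genes of interferon receptors and their signalling, edgeR called 0, and 1 in each direction had an unadjusted p under 0.05. The median log2 ratio was 0.45, and 0.11 without naive replicate 2. Irf8, a transcription factor of myeloid and B cells among others, was at 10.6, 15.8 and 25.5 CPM in the naive and at 89.4, 84.2, 72.1 and 93.3 CPM in the allograft libraries, a log2 ratio of 2.07 (SE 0.408, adjusted p 0.144 by edgeR). Irf1, an early target of interferon gamma, was at 150, 42.0 and 142 CPM in the naive and at 58.1, 48.1, 46.6 and 31.0 CPM in the allograft libraries, a log2 ratio of -1.38 (SE 0.402). Its log2 ratio was -1.71 (SE 0.295) without naive replicate 2, and edgeR then called it as lower. Irf9, which encodes a DNA-binding factor of the type I interferon response, had a log2 ratio of 1.35 (SE 0.622) and was higher in every allograft than in any naive library.

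Of 26 type I interferon stimulated genes tested of 27 listed, edgeR called 0, and 1 had an unadjusted p under 0.05, as lower. The median log2 ratio was 0.35. Ifit3, an antiviral gene of this group, was at 10.7, 102 and 0 CPM in the naive and 0.783 to 2.20 CPM in the allograft libraries. Ddx58, which encodes the RNA sensor RIG-I, had a log2 ratio of 1.11 (SE 0.522) and Rtp4 one of -1.61 (SE 0.784). Without naive replicate 2, edgeR called Mx1 as higher, and the median was 1.04 against 0.23 over all genes.

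Of 16 genes induced by interferon gamma tested of 17 listed, edgeR called 0, and 2 had an unadjusted p under 0.05, both as lower. The median log2 ratio was -0.15, and -0.01 without naive replicate 2. These were the immunity-related GTPases Irgm1, with a log2 ratio of -1.63 (SE 0.598), and Tgtp1, with one of -1.36 (SE 0.516). Iigp1 was at 21.1 CPM in naive replicate 2 and at 0 to 1.03 CPM elsewhere. Gbp3 was called by edgeR as higher without naive replicate 2.

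Over all 88 pathway genes tested, edgeR called 0 with all 7 libraries. An unadjusted p under 0.05 by edgeR was found for 10 of the 88, against 10.3% of all genes tested. DESeq2 called 5 of 81 with an adjusted p, namely Irf1, Nlrp3, Irf8, Rnaseh2a and Ifi214, against 6.51% of all genes. Without naive replicate 2 edgeR called 5 of 88, against 560 of 18037 genes (3.1%). Of 8 genes that flank the cluster, 1 was tested: Fcer1a, which encodes a chain of the high-affinity IgE receptor, at 5.60, 0 and 0 CPM in the naive and 20.3, 16.8, 9.42 and 16.0 CPM in the allograft libraries. Its log2 ratio was 3.07 (SE 2.15). Of the flanking genes, 5 had 0 counts in all libraries.

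Genes that differ between mouse strains were read beside the family because the grafts combine 2 strains. H2-Ea-ps, the class II alpha gene defective in C57BL/6 mice, had 0 counts in 6 libraries and 0.196 CPM in allograft replicate 3. Gbp2b, an interferon-induced GTPase gene that differs between strains, had 0 counts in all 7. Nnt, whose C57BL/6J allele is deleted in part, was at 9.56, 3.91 and 18.7 CPM in the naive and at 14.7, 8.18, 10.03 and 9.89 CPM in the allograft libraries, which overlapped. The reference mm10 is C57BL/6 sequence, and whether reads from Balb/C alleles of the family were counted as well was not tested.

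As a description, the profiles of the family mean and of Mndal were compared with other genes over the 7 libraries. The measure was the root mean square difference of centred log2 CPM. The genes compared were the tested genes with a symbol and a mean log2 CPM of at least 3, which numbered 8035 before the members were left out. Closest to the mean of the tested members were Ms4a6b (0.334), Gdpd5 (0.337), H2-DMa (0.364), Stx11 (0.391) and Ms4a4b (0.401), against a median of 1.59 over the genes compared. Closest to Mndal were Birc3 (0.0928), Mvb12b (0.0993), Cerk (0.136), Cnot3 (0.140) and Gm42725 (0.143), against a median of 0.988. All these profiles share the 7 libraries, and with them the low level of ILC2 transcripts in naive replicate 2.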

How the data were processed

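Of the 2 tables used, both deposited by the authors, 1 gives whole-number counts and 1 gives FPKM, for 55335 identifiers. The submitters' processing notes name FastQC 0.11.5, STAR 2.5.3a, StringTie 1.3.1c, DESeq2 1.16.1 and mm10, without their order or roles. The annotation, the use of strand and the read length are not given in the sources used here. Over 7340 genes, the ratio of deposited FPKM to CPM differed between libraries only by a library factor (SD of the log ratio at most 0.00244), so both tables held 1 measurement. No 2 libraries held identical values. The 3 naive and 4 allograft libraries were grouped by their titles. Total counts were 29107326 to 53044907, and a count of 0 was taken to allow 3 counts. Such floors and the 95% Wilson intervals cover counting error only, since no molecular identifiers were used.

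Deposited counts were fitted by edgeR's quasi-likelihood method (version 4.0.16 in R 4.3.3) after TMM scaling and the filterByExpr filter, with p-values adjusted by Benjamini-Hochberg over all 17015 genes tested and a threshold of 0.05. The p-values measure the spread between pooled libraries. The alternatives were DESeq2 1.42.0 and its size factors in edgeR, no filter, a mean of at least 50 counts, mitochondrial genes left out, the replicate number as a block, each library left out, and limma 3.58.1 on log2(FPKM + 0.1) and log2(FPKM + 1), with at least 0.5 FPKM in at least 3 libraries. Sums of Ifi205 with Ifi211 and of Ifi203 with Mndal, and the family's sum without naive replicate 2, were added after the data had been seen. Of the methods, the edgeR fit was tested on simulated counts with known changes. Positions and 50-base words came from the GENCODE M21 annotation and promoters from RefSeq (GRCm38.p6).

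The members and the gene lists were chosen with earlier results of these data known. All members were named, and of each pathway list the genes past the threshold or otherwise the 3 with the smallest p. Of the strain list all genes were named, and for likeness the 5 closest genes with a mean log2 CPM (prior count 2) of at least 3. Genes that 1 alternative called and Tmem173 were named after their values had been seen. So were the cell type markers Itgax, Flt3, Cd209a, Xcr1, Ms4a1, Ebf1, Cd79b, C1qa, Klrb1c, Klra8, Gata3 and Il1rl1. The replicate numbers of naive and allograft libraries were not treated as pairs in the main fit.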

Additional observations from a re-analysis of the deposited data

Results flagged for a closer look

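In the 4 allografts, 34 quantities (the levels of the members, the other family genes and the pathway and strain genes that the naming rule takes, and the family's sum) were examined for 1 library far from the others, and 4 stood out, where chance alone gives about 1.7, since it marks about 1 in 20 groups of this size. Ifi209 was at 51.6 CPM in allograft replicate 1 and at 38.8 to 40.3 CPM in the other allografts. Ifi202b was at 0.206 CPM in allograft replicate 4 and had 0 counts in the other allografts. Ifi203-ps was at 0.114 CPM in allograft replicate 1 and at 0 in the other allografts. H2-Ea-ps was at 0.196 CPM in allograft replicate 3 and at 0 in the other allografts. The last 3 values rest on a few counts each. With 0 in all other allografts, any count above 0 is marked, so the comparison of 4 with 1.7 cannot be read.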

How the results depend on the processing

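The number of members past the threshold was 0 in edgeR with all 7 libraries. It became 2 without naive replicate 2 (Ifi205 and Ifi211), 1 in limma on log2(FPKM + 0.1) and 2 on log2(FPKM + 1), and stayed 0 in the other alternatives, DESeq2 included. Leaving out 1 library each time gave 0 to 2. The number of pathway genes past the threshold, 0 of 88, became 2 without naive replicate 1 (Fcer1a and Mb21d1), 5 without naive replicate 2, 5 in DESeq2 and 1 on either FPKM scale in limma. Leaving out 1 library each time gave 0 to 5. With the replicate block, 0 members and 0 pathway genes passed. Same-numbered libraries deviated from their group means with correlations of 0.0167, -0.018 and 0.0368 over genes. Naive replicates 1 to 3 correlated best with allograft replicates 3, 4 and 3. These values gave no sign that the numbers pair the libraries. They cannot exclude it, because the naive mean rests on 3 libraries, among them naive replicate 2. Ifi203, Ifi205, Ifi209 and Ifi211 kept a log2 ratio above 0 in all 15 alternatives. The sign changed in 5 of 15 for Ifi207, 4 of 15 for Ifi213, 2 of 12 for Ifi204, 2 of 15 for Aim2 and 1 of 15 for Mndal. The cause of these changes was not tested. Counting precision was lowest for Ifi202b, with 6 counts in all, and for Ifi204 in the allografts, with 8 to 58 counts each.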
